A study of Mus musculus with 13 samples.

Results

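Cytosolic ribosomal protein genes encode the proteins of the large and small subunits of the ribosome that translates nuclear messages in the cytoplasm. They were taken as every gene whose symbol is Rpl or Rps with a number, with or without a closing a, x, y or l, together with Rpsa, Rplp0, Rplp1 and Rplp2. The gene had to be named by a probe set that the platform annotation gives to 1 gene only. This gave 59 of the 19937 genes measured: 34 of the large subunit, 22 of the small subunit and 3 of the large subunit's stalk. Of these, 6 carry the symbol of a paralog or copy of another ribosomal protein gene (Rpl3l, Rpl10l, Rpl32l, Rpl39l, Rps4l and Rps27l). Another 17 genes that fit the symbol rule are named only by probe sets shared with other genes and are not members.

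The samples are mouse melanocytes and melanocytic lesions on 13 whole-transcript Affymetrix arrays, 1 array per sample. Tissue taken without culture was Cdkn2a/Braf/Lkb1 melanoma on 2 arrays, Cdkn2a/Braf melanoma on 2 and Lkb1/Braf melanocytic proliferations, which were pooled, on 3. Melanocytes purified by FACS, which sorts labelled cells one by one, came from 3 groups of 2 arrays each: Cdkn2a/Braf at day 50, which the labels place after growth arrest, Cdkn2a/Braf at day 19, which they place before it, and Cdkn2a only with wild-type Braf at day 19. The Cdkn2a genotype is thus shared by all groups except the proliferations, and the Braf genotype by all groups except the Cdkn2a only cells. The series title names an activated Braf allele and mTORC1. The promoter or Cre line behind these alleles, the age of the animals with tumours and the number of proliferations in a pool are not known here. The labels call the samples of a group biological replicates but do not say whether they came from separate animals, so p-values measure only the spread between these samples.

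Ribosomal proteins are made in near equal amounts because each mature ribosome holds about one copy of most of them. Their messages start with a C followed by a run of pyrimidines, the terminal oligopyrimidine or TOP motif, and mTORC1 controls such messages mainly by releasing them for translation through Larp1 and the 4E-BP proteins. Lkb1, the kinase encoded by Stk11, restrains mTORC1 through AMPK. Message levels, which these arrays measure, do not show how well a message is translated. Myc raises the transcription of ribosomal protein genes and of the factors that assemble ribosomes, and free Rpl5 and Rpl11 bind Mdm2 when assembly fails.

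The start regions of 8 members on which the results below turn are shown to let the TOP motif be seen beside the values. They run from 10 bases before to 20 bases from the annotated transcription start, on the strand of the gene, from RefSeq on build GRCm38.p6. Capitals mark the longest run of at least 5 pyrimidines in the window. Rpl34, Rps27l and Rpl3l have 2 annotated starts, of which the first listed is shown.
Rpl14, chr9:120571507-120571536, plus strand: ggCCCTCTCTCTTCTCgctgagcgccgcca
Rps6, chr4:86857348-86857377, minus strand: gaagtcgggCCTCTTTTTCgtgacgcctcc
Rps10, chr17:27635225-27635254, minus strand: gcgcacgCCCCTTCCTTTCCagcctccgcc
Rplp2, chr7:141447641-141447670, plus strand: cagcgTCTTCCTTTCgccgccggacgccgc
Rpl34, chr3:130730379-130730408, minus strand: tccctgacgtaCTTCCTgtccggcgccgtc
Rps27l, chr9:66946076-66946105, plus strand: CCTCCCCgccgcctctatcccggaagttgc
Rpl39l, chr16:10170218-10170247, plus strand: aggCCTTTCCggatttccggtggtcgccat
Rpl3l, chr17:24727816-24727845, plus strand: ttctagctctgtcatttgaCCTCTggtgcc
Rpl14, Rps6, Rps10 and Rplp2 hold runs of 10 to 14 pyrimidines across the start, while the runs in Rpl34 and the paralogs Rps27l, Rpl39l and Rpl3l are 5 to 7 bases long. RefSeq start regions were found for 47 of the 59 members, and a gene counts as holding a motif if any of its annotated starts does. A run of 8 or more pyrimidines lay within 50 bases of the start on the coding strand in 38 of the 47 (80.9%), against 39.3% of 27025 mouse genes. A C followed by at least 4 pyrimidines stood exactly at the annotated start in 10 of the 47 (21.3%), against 3.0% of all genes. The letters CTTCCG, or the same on the other strand, lay within 50 bases in 19 of the 47 (40.4%), against 10.4%. This motif overlaps the pyrimidine runs by its first 5 letters, and a match describes these letters only.

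Levels are log2(intensity + 1), so a difference of 1 is a doubling of the deposited linear value. The brightness of a probe set depends on its probes, so levels are compared between samples and not between genes. On this scale 42 of the 59 members averaged 11 or more, 6 lay between 9 and 11 and 11 lay below 9. Only 241 of all 19937 genes averaged 11 or more. On every array 43 members were above the 95th percentile of all genes. The 59 genes made up 4.31 and 4.41% of the summed intensity in Cdkn2a/Braf/Lkb1 melanomas and 4.45 and 4.54% in Cdkn2a/Braf melanomas, against 5.58, 5.49 and 5.44% in the proliferations. In sorted cells they made up 4.35 and 4.92% at day 50 and 4.05 and 4.17% at day 19 with Cdkn2a/Braf, and 3.64 and 3.92% at day 19 with Cdkn2a only. The share was thus highest on the 3 proliferation arrays, which overlapped with no other group, and lowest on the Cdkn2a only arrays. It depends on the other genes as well as on the members. The upper quartile over all genes was 7.55 to 7.60 in the proliferations and 7.85 to 8.07 in the melanomas. A higher share is therefore not by itself more ribosomal protein message, and how far each part moved it was not tested. In these bulk samples, fewer cells of a type and less RNA per cell cannot be told apart.

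**Figure D1:**
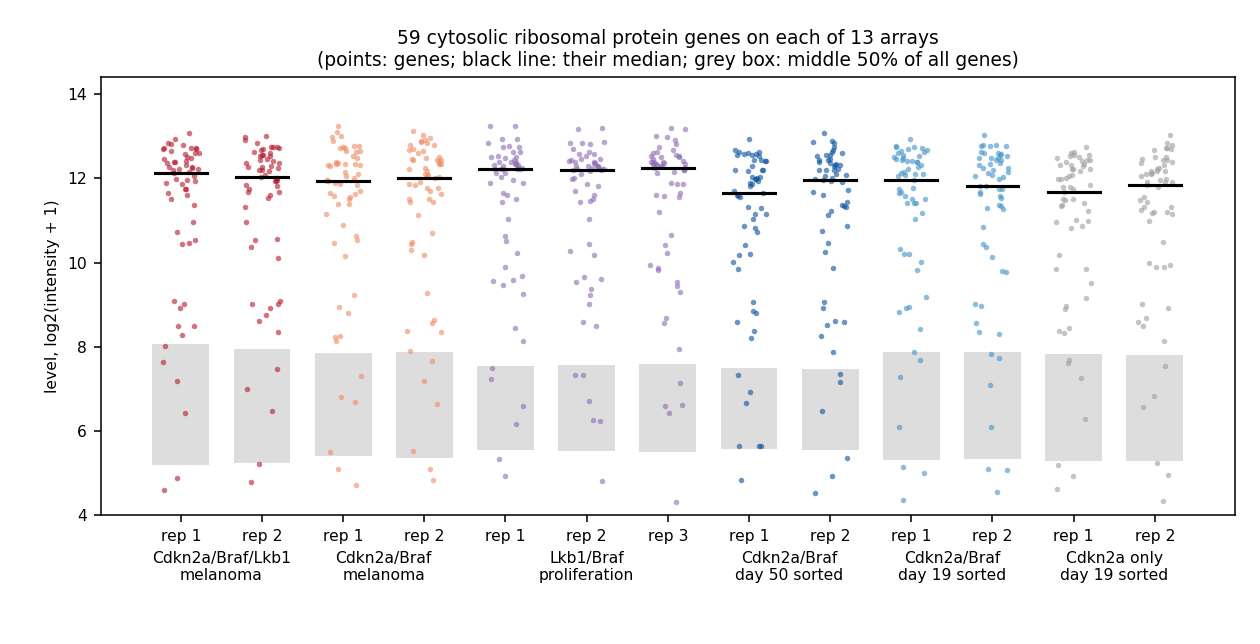
Level of each of the 59 members (points; y axis, log2(intensity + 1)) on each of the 13 arrays, grouped along the x axis, with the members' median (black line) and the middle 50% of all 19937 genes (grey box). The members' median lies between 11.65 and 12.24 on all 13 arrays, while the height of the grey box differs between groups and is smallest at day 50 and in the proliferations.

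The arrays differed in range. The interquartile range over all genes was 2.89 and 2.71 in Cdkn2a/Braf/Lkb1 melanomas, 2.45 and 2.53 in Cdkn2a/Braf melanomas and 2.00, 2.04 and 2.11 in the proliferations. In sorted cells it was 1.94 and 1.93 at day 50, against 2.58 and 2.54 at day 19 with Cdkn2a/Braf and 2.53 and 2.52 with Cdkn2a only. The day 50 pair also differed most within a group, with an SD of 0.703 over all genes for the difference between its 2 arrays, against 0.273 to 0.404 for replicates 1 and 2 of the other groups. Stk11 was at 8.36 and 7.86 in Cdkn2a/Braf/Lkb1 melanomas, 8.90 and 8.63 in Cdkn2a/Braf melanomas and 8.09, 8.23 and 8.36 in the proliferations. The differences between these groups did not pass the test, with limma's adjusted p = 0.396 for the first pair. Cdkn2a lay between 6.21 and 6.76 on all arrays, and Braf between 7.97 and 9.31. Nothing tells whether these probe sets lie in a deleted or altered part, so they check no label. Of the melanocyte markers (Mitf, Sox10, Kit, Dct, Tyr, Tyrp1, Pmel and Mlana), 0 of 8 averaged below 6 in any sorted group or in the proliferations, against 3 of 8 in Cdkn2a/Braf/Lkb1 melanomas and 4 of 8 in Cdkn2a/Braf melanomas. Their median level was 6.02 and 6.15 in Cdkn2a/Braf/Lkb1 melanomas and 6.11 and 6.55 in Cdkn2a/Braf melanomas, against 7.72 to 7.87 in the proliferations and 10.64 to 12.34 in sorted cells, so the pigment cell genes go with the label in the sorted cells and are low in the melanomas.

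The SD over the 6 group means was under 0.25 in 36 of the 59 members and over 0.5 in 5, which were Rpl39l, Rpl14, Rps25, Rps4l and Rps27l. This SD was not taken over all genes or over other bright genes, so a small SD is not shown to be particular to the members. Rps28, a small subunit protein, was steadiest with an SD of 0.07, followed by Rpl36, a large subunit protein, at 0.08 and by Rpl26 and Rps21 at 0.09. Rps28 stood at 12.48 and 12.61 in Cdkn2a/Braf/Lkb1 melanomas, 12.47 and 12.45 in Cdkn2a/Braf melanomas and 12.52, 12.44 and 12.50 in the proliferations. In sorted cells it stood at 12.43 and 12.54 at day 50, 12.39 and 12.32 at day 19 with Cdkn2a/Braf and 12.33 and 12.42 with Cdkn2a only. Rps25, a small subunit protein needed for initiation on some viral messages, was lower in the sorted cells, with means of 10.99 at day 50, 10.93 at day 19 with Cdkn2a/Braf and 11.01 with Cdkn2a only, than in the tissues, with means of 11.95, 11.70 and 12.27 in Cdkn2a/Braf/Lkb1 melanomas, Cdkn2a/Braf melanomas and proliferations. This difference between kinds of material was not tested. The 2 day 50 arrays, at 10.02 and 11.95, lay far apart.

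Of the members listed for a special role, most moved little. Rpl5, which binds 5S RNA and Mdm2, had group means within an SD of 0.12, and Rpl4, which lines the exit tunnel, within 0.10. Rps2, at the site where the message enters, had an SD of 0.14 over group means and Rps3, which also acts outside the ribosome, 0.15. Rps19, the gene most often mutated in human Diamond-Blackfan anaemia, had an SD of 0.29, and Rpl22, which has been studied as a tumour suppressor in mouse T cells, 0.24. Rps18 and Rplp0, both often used to normalize RNA measurements, had SDs of 0.23 and 0.25. None of Rpl5, Rpl4, Rps2, Rps3, Rps19, Rpl22 and Rps18 passed the test in any of the 5 comparisons. By contrast, Rplp0 passed in 2 of them and Rps6, also listed for a special role, in 1.

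**Figure D2:**
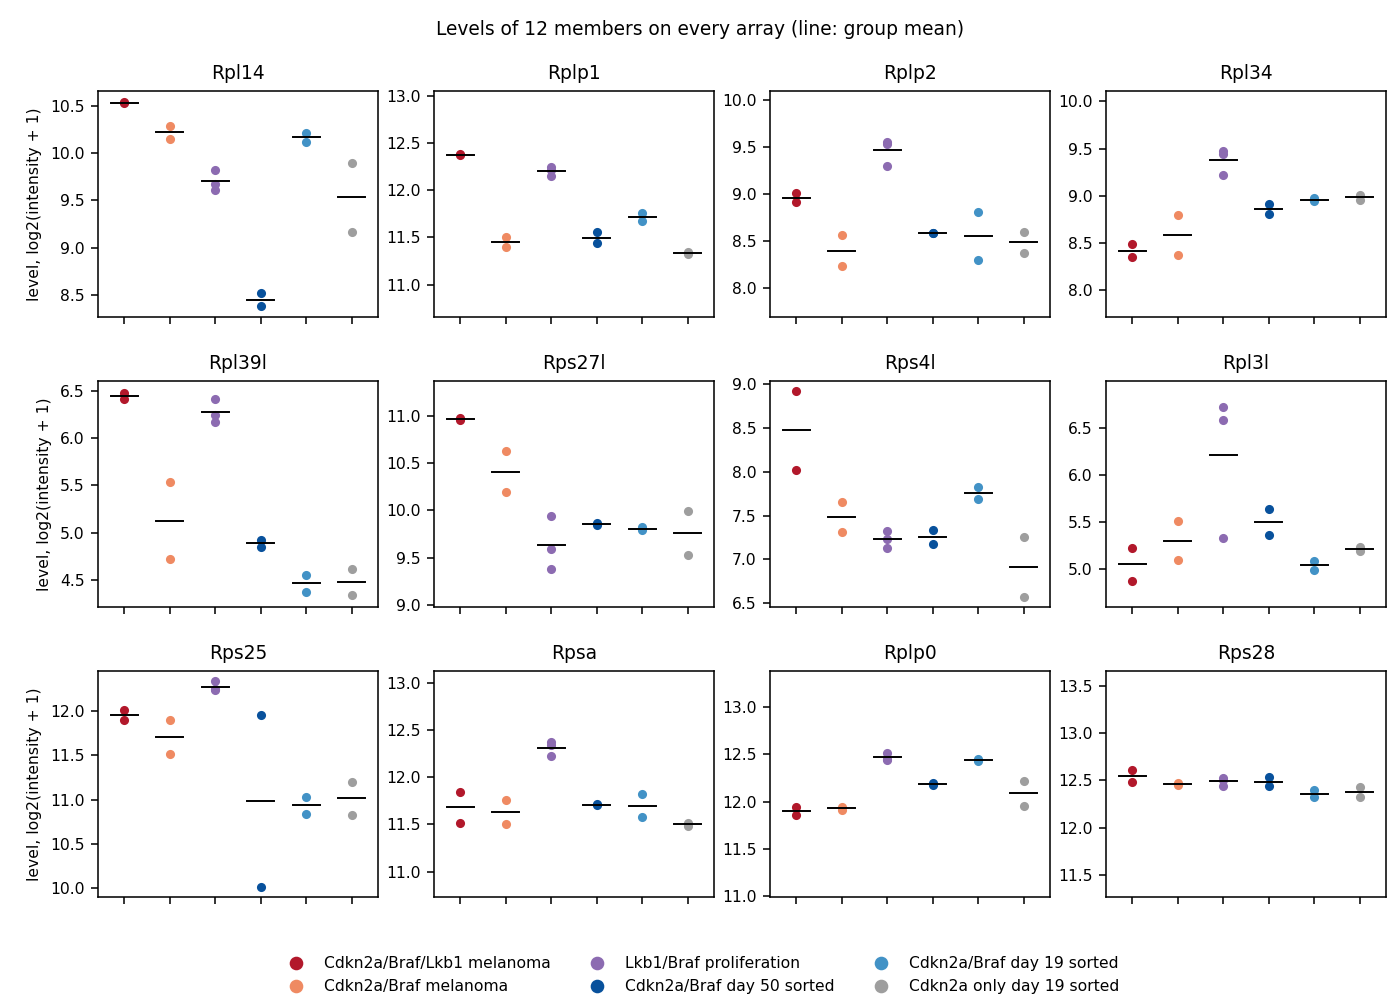
Levels (y axis, log2(intensity + 1), with a separate axis for each gene) of 12 members on every array, by group (colours), with group means as black lines. Rpl14 is lowest at day 50 at 8.39 and 8.51, Rplp1 and Rpl39l are higher in Cdkn2a/Braf/Lkb1 than in Cdkn2a/Braf melanomas, Rplp2, Rpl34, Rpsa and Rplp0 are higher in the proliferations than in either melanoma, and Rps28 lies between 12.32 and 12.61 throughout.

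Differences were tested with limma, and p-values were adjusted by Benjamini and Hochberg's method across the 19937 genes, with a threshold of 0.05. In all, 43 of the 59 members passed in none of the 5 comparisons, 5 passed in 1 and 11 in more than 1. Within single comparisons 0 to 18.6% of the members passed, against 0.291 to 40.6% of all genes. A count across comparisons was not made for all genes, so 43 of 59 has no such share beside it. The comparisons share groups: the day 19 Cdkn2a/Braf arrays enter 2, each melanoma group enters 2 and the proliferations enter 2, so calls in comparisons that share a group do not support each other.

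The comparison of day 50 with day 19 asks how growth-arrested Cdkn2a/Braf melanocytes differ from the same genotype while still growing. Of the 59 members 4 fell and 0 rose, against 14.5% of all genes that fell and 11.1% that rose. The share of members that passed, 6.78%, was below the 25.6% of all genes. Their median difference was -0.14, beside 0.17 over all genes and -0.28 over the 199 other genes at a mean level of 11 or more, of which 53 fell and 9 rose. All arrays of day 50 lay below those of day 19 in 25 members and above in 9, against 24.8% and 45.9% of all genes.

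Rpl14, a protein of the large subunit, fell furthest. It was at 8.39 and 8.51 at day 50 and at 10.21 and 10.12 at day 19, so the groups were far apart relative to their SDs of 0.09 and 0.06. The difference was -1.72 ± 0.20 (SE, limma adjusted p = 0.000389) and it passed in all 14 alternatives. Rpl14 has a single probe set, so a second measure within the array is not given.

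The other 3 members that fell did so by less. Rps10, a small subunit protein near the entry of the message, was at 10.73 and 10.86 at day 50 and at 11.18 and 11.29 at day 19, with a difference of -0.44 (limma adjusted p = 0.0416). Rps14, of the platform of the small subunit, was at 12.58 and 12.60 at day 50 and at 12.93 and 13.02 at day 19 (-0.38, limma adjusted p = 0.0361). Rpl10, which joins the large subunit late in its assembly, averaged 11.93 ± 0.11 at day 50 and 12.27 ± 0.05 at day 19 (SD, n = 2 each; -0.34, limma adjusted p = 0.0490). Their groups did not overlap, but each lost its call in 7 to 9 of 14 alternatives and turned to 0.80, 1.40 and 1.24 when all arrays were scaled to a common interquartile range. A second probe set named for Rps10 and one for Rps14 had differences of -0.69 and -0.35, whereas 4 other probe sets named for Rpl10 ranged from -0.74 to 0.28.

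The count rested on single arrays. Without day 50 replicate 1, 3 members rose and 1 fell, with a median of -0.04. Without day 50 replicate 2, 1 rose and 11 fell, with a median of -0.21, and without either of the day 19 arrays 1 fell. Rpl27a, a large subunit protein named here after its values were seen, differed between the day 50 arrays: it was at 11.94 and 12.88 at day 50 against 11.76 and 11.74 at day 19 and did not pass (0.66, limma adjusted p = 0.0652). The median of the members was -0.23 with arrays centred on their medians (0 rose, 8 fell), 0.01 with quantile normalization (2 rose, 2 fell), 0.16 with cyclic loess (6 rose, 1 fell) and 1.27 with a common interquartile range (47 rose, 1 fell). The other 199 bright genes moved with the scale in the same way, from -0.38 with centring to -0.06, 0.12 and 1.17 in that order.

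Genes of the mitochondrial ribosome and of ribosome assembly fell in larger shares at day 50 than the members. Over all genes 14.5% fell and 11.1% rose. When only the 9968 genes above the median level were tested, 27.2% fell and 6.97% rose, with a median of -0.26. How far brightness sets the shares of the lists was not tested. Of 77 mitochondrial ribosomal protein genes, which serve the separate ribosome of mitochondria, 26 fell and 1 rose, with a median of -0.58. Mrpl18 averaged 7.34 at day 50 against 9.44 at day 19 (-2.10, limma adjusted p = 0.00253). Of 37 genes for ribosome assembly 15 fell and 0 rose, with a median of -0.53, among them Polr1c, a subunit shared by RNA polymerases I and III (-1.66), Bysl, which matures the small subunit (-1.28), and Rrn3, which starts polymerase I (-1.23). On the other 4 scales 12 to 30 of the mitochondrial list fell and 1 to 7 rose, and 7 to 17 of the assembly list fell and 0 to 3 rose, with both medians negative throughout. Over all genes 7.94 to 16.5% fell and 5.19 to 10.4% rose on those 4 scales. Of 19 translation factors and other TOP genes 4 fell and 0 rose on the deposited scale, among them Btf3, part of the complex that meets nascent chains (-1.46). Their median was -0.23 and turned positive with cyclic loess (0.20) and with a common interquartile range (1.10). Of 18 regulators 6 fell and 1 rose. Rheb, the GTPase that activates mTORC1 (-1.24), Rptor (-0.95) and Mtor (-0.78), 2 parts of mTORC1, fell. Tsc2, which with Tsc1 turns Rheb off, fell too (-0.53, limma adjusted p = 0.0426), as did the transcription factors Sp1 and Yy1, and Mycn rose by 0.87 from a low level. Myc averaged 9.77 at day 50 against 9.10 at day 19 and did not pass (0.67, limma adjusted p = 0.0682). With quantile normalization 2 of the 18 fell and 4 rose, with cyclic loess 3 and 3, and with a common interquartile range 2 and 4.

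Markers of other skin cells moved along the same contrast. The 6 keratinocyte markers summed to between 10131 and 14231 at day 50, against 1866 to 2074 at day 19, and 2 of them rose. Of 6 fibroblast markers 5 rose, and their sum was between 3931 and 4682 at day 50 and between 752 and 869 at day 19. All 5 endothelial markers rose (median 1.95), with a sum of 781 to 2279 at day 50 and 299 to 322 at day 19, and both Schwann cell markers measured rose (median 1.72). The 8 melanocyte markers summed to between 24152 and 32030 at day 50 and between 42140 and 44823 at day 19, and 4 of them fell. The part of these cells in the differences of the ribosomal protein genes was not tested.

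**Figure D3:**
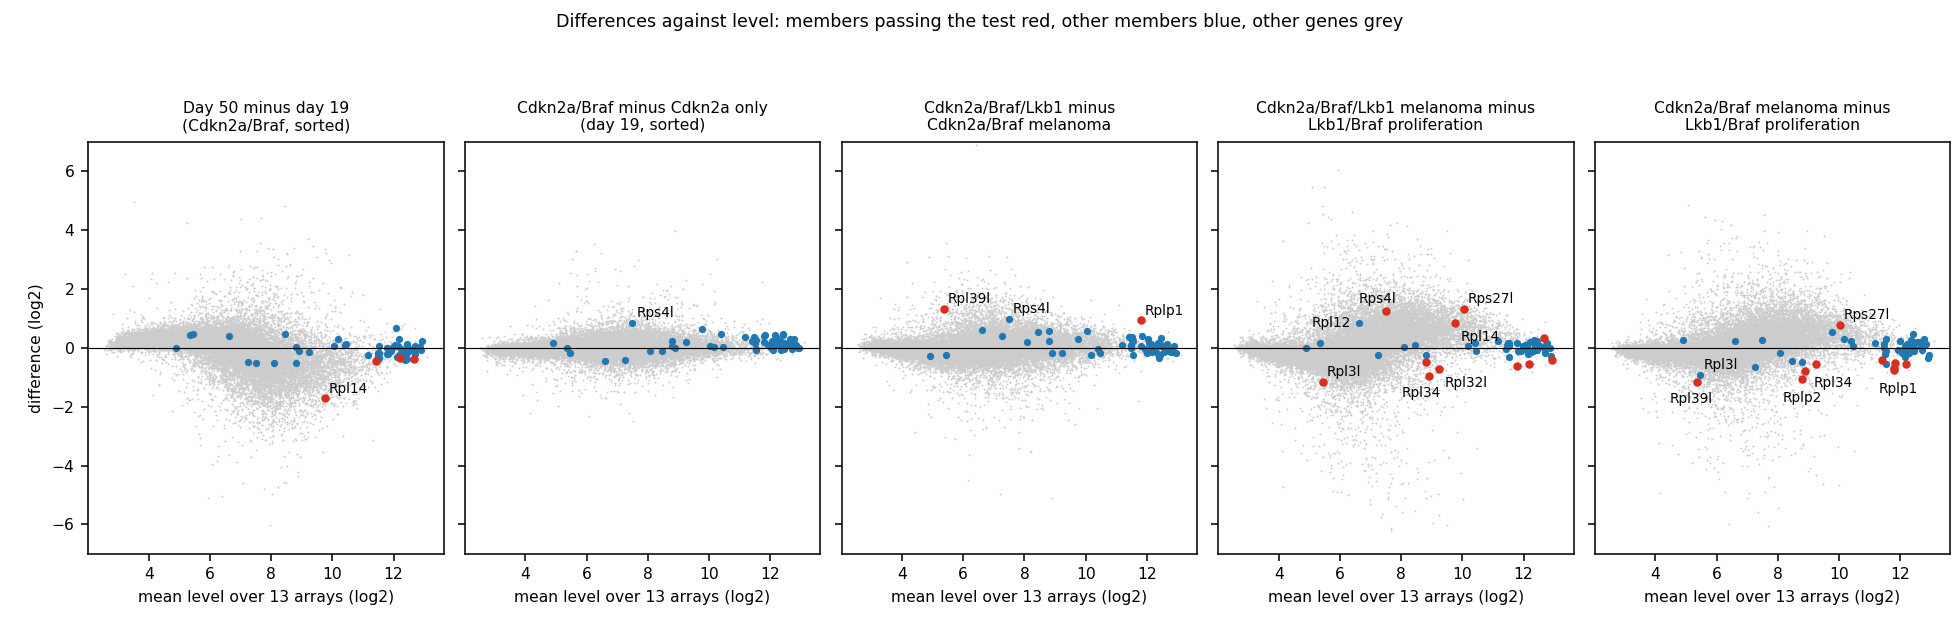
Difference (y axis, log2) against mean level over the 13 arrays (x axis, log2) for all genes (grey), members that did not pass the test (blue) and members that passed (red), in the 5 comparisons; members beyond 0.7 in either direction are named. The members sit mostly at the bright end and near 0, with no member beyond 1.72 in either direction, while over all genes the differences run from -6.01 to 4.94 at day 50 and from -2.49 to 3.97 for Braf.

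The comparison of Cdkn2a/Braf with Cdkn2a only melanocytes at day 19 asks what the Braf allele changes before arrest. 0 of the 59 members rose and 0 fell after adjustment, against 0.236% and 0.0552% of all genes, while 13 had an unadjusted p under 0.05 (limma). The members' median difference was 0.15, beside 0.02 over all genes and 0.02 over the other bright genes. Both Cdkn2a/Braf arrays lay above both Cdkn2a only arrays in 33 members and below in 4, against 23.1% and 17.5% of all genes. The median stayed positive on the other scales, between 0.09 and 0.12 for centring, quantile and cyclic loess, and was 0.00 with a common interquartile range.

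The 3 members with the largest differences here did not pass. Rps4l, which RefSeq lists as a transcribed pseudogene related to Rps4x, was at 7.68 and 7.83 with Cdkn2a/Braf and at 7.25 and 6.57 with Cdkn2a only (0.85, limma adjusted p = 0.467). Rpl14 was at 10.21 and 10.12 with Cdkn2a/Braf and at 9.17 and 9.90 with Cdkn2a only (0.63, limma adjusted p = 0.402). Rpl12 was at 6.09 and 6.10 with Cdkn2a/Braf and at 6.28 and 6.84 with Cdkn2a only. In all 3 the spread lay in the Cdkn2a only pair, whose replicate 1 was 0.10 lower than its replicate 2 in the median member.

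Among the context genes, Myc, a transcription factor for ribosome genes, rose, with a mean of 9.10 in Cdkn2a/Braf and 7.28 in Cdkn2a only cells (1.82, limma adjusted p = 0.0154), and it did so on all 5 scales as the single regulator that passed. The assembly list had a median of 0.26 and the TOP list 0.32, both positive on all 5 scales, with 0 of 37 and 0 of 19 passing and 9 and 6 with an unadjusted p under 0.05 (limma). The mitochondrial list had a median of 0.03, which was between -0.06 and -0.01 on the other 4 scales, and 0 of 77 passed, with 3 at an unadjusted p under 0.05. Keratinocyte markers summed to between 1866 and 2074 with Cdkn2a/Braf and between 1062 and 2340 with Cdkn2a only, so these ranges overlapped.

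The comparison of Cdkn2a/Braf/Lkb1 with Cdkn2a/Braf melanomas asks what the added loss of Lkb1 changes in a tumour. Of the 59 members 2 rose and 0 fell, against 1.83% and 0.732% of all genes. The median difference was 0.06 over the members, -0.04 over all genes and 0.06 over the other bright genes. All Cdkn2a/Braf/Lkb1 arrays lay above all Cdkn2a/Braf arrays in 25 members and below in 16, against 24.6% and 28.9% of all genes. With a common interquartile range the median was -0.46, and it was between 0.03 and 0.10 on the other scales.

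Rplp1 was one of these. It encodes one of the acidic P proteins that pair with Rplp2 on the stalk, which brings elongation factors to the ribosome. Rplp1 was at 12.38 and 12.37 in Cdkn2a/Braf/Lkb1 melanomas and at 11.40 and 11.50 in Cdkn2a/Braf melanomas. The 4 arrays form 2 tight pairs, and the difference was 0.93 ± 0.11 (SE, limma adjusted p = 0.00404). A second probe set named for Rplp1 gave 0.93 as well. Of 15 alternatives, only the common interquartile range ended the call, at 0.30. Its partner Rplp2 was at 8.92 and 9.01 in Cdkn2a/Braf/Lkb1 melanomas and at 8.23 and 8.56 in Cdkn2a/Braf melanomas, which did not pass. Rplp0, the base of the stalk, was at 11.86 and 11.94 in Cdkn2a/Braf/Lkb1 melanomas and at 11.94 and 11.91 in Cdkn2a/Braf melanomas.

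The other was Rpl39l, a copy of Rpl39 known in mouse for its expression in the male germ line. It was at 6.42 and 6.48 in Cdkn2a/Braf/Lkb1 melanomas and at 4.72 and 5.54 in Cdkn2a/Braf melanomas, so the pair of Cdkn2a/Braf melanomas was the wider one. The difference was 1.33 ± 0.23 (SE, limma adjusted p = 0.0165). The adjusted p was 0.0505 without Cdkn2a/Braf/Lkb1 replicate 1 and 0.0645 without replicate 2, which ends the call. Without that replicate 2, 1 member rose in all. Rps4l was at 8.02 and 8.92 in Cdkn2a/Braf/Lkb1 melanomas and at 7.31 and 7.66 in Cdkn2a/Braf melanomas. Its groups did not overlap but it did not pass (0.99, limma adjusted p = 0.103). It passed with the mean of its probe sets, where the difference was 0.98, and without Cdkn2a/Braf/Lkb1 replicate 1, where it was 1.44.

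Genes for ribosome assembly were higher here in small number. Of 37, 4 rose and 0 fell, with a list median of 0.46 that stayed between 0.27 and 0.50 on the other scales. They were Bysl (0.98), Nop16, a nucleolar protein (0.96), Rrn3 (0.94) and Nhp2, a core protein of pseudouridine-guiding particles (0.81). With a common interquartile range 1 of the 37 rose. The mitochondrial list had a median of 0.34 with 0 of 77 passing and 19 at an unadjusted p under 0.05 (limma). Of the TOP list Eif3k, a subunit of an initiation factor, rose by 0.63, a call lost with quantile normalization, cyclic loess and a common interquartile range, and 0 of the 18 regulators passed, with 3 at an unadjusted p under 0.05 (limma).

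Markers of other cells moved along this contrast too. The 6 macrophage markers summed to between 5867 and 6665 in Cdkn2a/Braf/Lkb1 and between 3013 and 3656 in Cdkn2a/Braf melanomas, and all 6 differences were positive (median 0.89), with Cd68 past the test (1.65). The 4 mast cell markers summed to between 397 and 812 in Cdkn2a/Braf/Lkb1 and between 1059 and 3171 in Cdkn2a/Braf melanomas, and all 4 differences were negative (median -1.18), with Mcpt4 past the test (-2.71). Of the 6 fibroblast differences 4 were positive and 2 negative (median 0.60), with Col1a1 alone past the test (1.39). All 6 keratinocyte differences were negative (median -1.17), and 0 of 6 passed. The part of these cells in the differences of Rplp1, Rpl39l and the assembly genes was not tested.

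**Figure D4:**
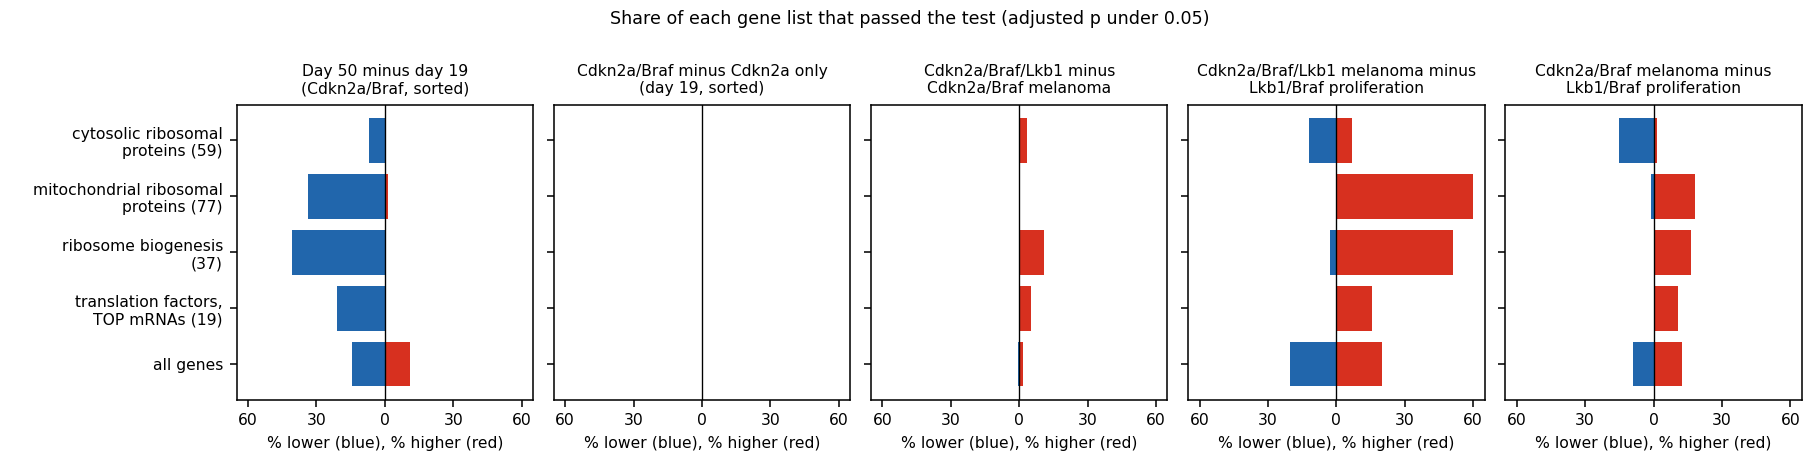
Share of each gene list that rose (red, right) or fell (blue, left) at an adjusted p under 0.05, in the 5 comparisons (x axis, percent; y axis, list with its number of genes). Of the 59 cytosolic ribosomal proteins, at most 9 passed in either direction. These 9 fell in Cdkn2a/Braf melanomas against proliferations, where 8.88% of all genes fell. At day 50, where 14.5% of all genes fell, 26 of 77 mitochondrial ribosomal proteins and 15 of 37 assembly genes fell. On this deposited scale 46 and 19 of them rose in Cdkn2a/Braf/Lkb1 and 14 and 6 in Cdkn2a/Braf melanomas set against proliferations, whereas with quantile normalization 6 mitochondrial genes rose and 4 fell for Cdkn2a/Braf/Lkb1 and 4 rose and 8 fell for Cdkn2a/Braf.

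The comparison of Cdkn2a/Braf/Lkb1 melanomas with Lkb1/Braf proliferations asks what separates a melanoma from a growth that also carries the Lkb1 label but is not a melanoma. Of the 59 members 4 rose and 7 fell, against 20.0% and 20.6% of all genes. The share of members that passed, 18.6%, was below the 40.6% of all genes. The median difference was 0.05, beside -0.04 over all genes and 0.30 over the other 199 bright genes, of which 61 rose and 11 fell. All melanoma arrays lay above all proliferation arrays in 21 members and below in 18, against 34.0% and 35.8% of all genes.

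Among the 4 that rose, Rps27l is a paralog of Rps27 that p53 is known to induce. It was at 10.95 and 10.97 in the melanomas and at 9.59, 9.37 and 9.94 in the proliferations, with a difference of 1.33 ± 0.20 (SE, limma adjusted p = 0.000802). Mdm2, another p53 target and the ligase that Rpl5 and Rpl11 bind, averaged 9.13 in the melanomas and 7.88 in the proliferations (1.25, limma adjusted p = 0.00382). The call of Rps27l was lost under a common interquartile range alone, where its difference was 0.28. Rps4l was at 8.02 and 8.92 in the melanomas and at 7.23, 7.32 and 7.13 in the proliferations (1.24, limma adjusted p = 0.00512), and it passed in all 15 alternatives. Transcripts of related copies such as Rps4l and Rps4x may reach the same probes. Rps4x itself was at 12.94 and 12.90 in the melanomas and at 12.93, 12.86 and 13.02 in the proliferations.

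Rpl14 also rose here. It was at 10.53 and 10.54 in the melanomas and at 9.67, 9.61 and 9.82 in the proliferations (0.84, limma adjusted p = 0.00604), and was at -0.17 with a common interquartile range. The call was lost with quantile normalization (0.30) and cyclic loess (0.27). Rps14 was at 12.79 and 12.74 in the melanomas and at 12.33, 12.46 and 12.53 in the proliferations (0.33, limma adjusted p = 0.0322), and lost its call in 8 of 15 alternatives and turned to -1.44 in another, the common interquartile range.

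Among the 7 that fell, Rpl34 of the large subunit was at 8.48 and 8.35 in the melanomas and at 9.47, 9.22 and 9.45 in the proliferations, with a difference of -0.96 ± 0.14 (SE, limma adjusted p = 0.000794). Rpl32l, a copy of Rpl32, was at 9.09 and 9.08 in the melanomas and at 9.90, 9.66 and 9.87 in the proliferations (-0.72, limma adjusted p = 0.00145). Both passed in all 15 alternatives. Rpsa, a small subunit protein also known as the laminin receptor, was at 11.51 and 11.85 in the melanomas and at 12.23, 12.37 and 12.34 in the proliferations (-0.63, limma adjusted p = 0.00586). Rplp0 was at 11.86 and 11.94 in the melanomas and at 12.44, 12.45 and 12.51 in the proliferations (-0.57, limma adjusted p = 0.00320).

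Both calls rest on the brightest probe set. The mean of all probe sets gave -0.11 for Rpsa and -0.26 for Rplp0, neither of which passed. The second probe set named for Rplp0 had a difference of 0.05, and the 4 others named for Rpsa ranged from -0.44 to 0.40. Without Cdkn2a/Braf/Lkb1 replicate 1 Rpsa did not pass either, at -0.47. Rpsa and Rplp0 have many processed pseudogenes in mammals, so which copies these probe sets read is uncertain.

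The other 3 that fell were close to the threshold. Rplp2 was at 8.92 and 9.01 in the melanomas and at 9.56, 9.53 and 9.30 in the proliferations (-0.50, limma adjusted p = 0.0406). Rps6, the substrate of the S6 kinases downstream of mTORC1, was at 12.83 and 12.74 in the melanomas and at 13.23, 13.18 and 13.19 in the proliferations (-0.42, limma adjusted p = 0.0370). Each lost its call in 7 of 15 alternatives. Rpl3l, a paralog of Rpl3 made in striated muscle, was at 4.88 and 5.22 in the melanomas and at 5.33, 6.72 and 6.58 in the proliferations (-1.16, limma adjusted p = 0.0242), and lost its call in 8 of 14 alternatives, among them those without proliferation replicate 2 or replicate 3.

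The 4 skeletal muscle markers (Acta1, Myh4, Ckm and Tnnt3) had a pattern like that of Rpl3l over the proliferations. Their summed intensity was 506 and 3194 in Cdkn2a/Braf/Lkb1 melanomas and 1664 and 381 in Cdkn2a/Braf melanomas, against 1019, 12102 and 10700 in proliferation replicates 1, 2 and 3. Among the proliferations, the replicate with the lowest muscle sum was also that with the lowest Rpl3l. Between groups the order differed: Cdkn2a/Braf/Lkb1 replicate 2 had a higher muscle sum than proliferation replicate 1, 3194 against 1019, but a lower Rpl3l. Of the 4 markers, 2 fell in each melanoma group against the proliferations. Keratinocyte markers summed to 407 and 958 in Cdkn2a/Braf/Lkb1 melanomas and to 443 and 5442 in Cdkn2a/Braf melanomas, against 17678 to 18858 in the proliferations, and 6 and 5 of 6 fell. All 3 adipocyte markers fell too, and of the 8 melanocyte markers 7 and 6 fell. Other lists went up: of 5 endothelial markers 3 and 2 rose and 0 fell. Of 6 macrophage markers 2 rose and 0 fell in Cdkn2a/Braf/Lkb1 melanomas, and 0 rose and 1 fell in Cdkn2a/Braf melanomas. Of 6 fibroblast markers 4 rose and 1 fell in Cdkn2a/Braf/Lkb1 melanomas, and 1 rose and 0 fell in Cdkn2a/Braf melanomas. The part of these cells in the differences of Rpl3l and of the other members was not tested.

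The count depended on single arrays and on the scale. It was 3 to 5 members lower and 3 to 4 higher when 1 array was left out: 3 fell without Cdkn2a/Braf/Lkb1 replicate 1, 4 without replicate 2 and 4 without proliferation replicate 2. Centring the arrays gave 9 higher and 5 lower, quantile normalization 2 and 8, cyclic loess 2 and 20, and a common interquartile range 1 and 49. The members' median in that order was 0.17, -0.05, -0.32 and -1.53, beside 0.41, 0.09, -0.12 and -1.14 over the other bright genes. The members' median was below that of the other bright genes on all 5 scales.

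The comparison of Cdkn2a/Braf melanomas with the same proliferations differs in 2 genotypes at once, since the melanomas carry the Cdkn2a label and the proliferations the Lkb1 label. Of the 59 members 1 rose and 9 fell, against 12.6% and 8.88% of all genes. The share that passed was 16.9%, against 21.5% of all genes. The median was -0.03, beside -0.02 over all genes and 0.22 over the other bright genes, of which 42 rose and 9 fell. All melanoma arrays lay above all proliferation arrays in 17 members and below in 22, against 30.3% and 27.7% of all genes.

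All 3 stalk genes fell. Rplp2 was at 8.23 and 8.56 in Cdkn2a/Braf melanomas and at 9.56, 9.53 and 9.30 in the proliferations (-1.06 ± 0.17 SE, limma adjusted p = 0.00217). Rplp1 was at 11.40 and 11.50 in the melanomas and at 12.25, 12.22 and 12.15 in the proliferations (-0.76 ± 0.10 SE, limma adjusted p = 0.000797). Both passed in all 15 alternatives. Rplp0 was at 11.94 and 11.91 in the melanomas and at 12.44, 12.45 and 12.51 in the proliferations (-0.54, limma adjusted p = 0.00684), and did not pass with the mean of its 2 probe sets (-0.34). In Cdkn2a/Braf/Lkb1 melanomas Rplp1 differed from the same proliferations by 0.17 and did not pass.

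Of the other members, Rpl39l was at 4.72 and 5.54 in Cdkn2a/Braf melanomas and at 6.18, 6.25 and 6.42 in the proliferations (-1.16 ± 0.21 SE, limma adjusted p = 0.00399), passing in all 14 alternatives. It was at 6.42 and 6.48 in Cdkn2a/Braf/Lkb1 melanomas and between 4.34 and 4.92 in all sorted cells. It was thus higher in the 2 tissue groups with the Lkb1 label than in every other group. Even there its levels lay close to or below the median of all genes, 6.44 to 6.57 on those arrays, where background makes up more of the signal. Rpl34 was at 8.79 and 8.37 in Cdkn2a/Braf melanomas (-0.80, limma adjusted p = 0.00361), and passed in all 15 alternatives.

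Rpl32l was at 9.22 and 9.28 (-0.56, limma adjusted p = 0.00918) and Rpsa at 11.50 and 11.76 (-0.68, limma adjusted p = 0.00719) in Cdkn2a/Braf melanomas. Both lost the call without Cdkn2a/Braf melanoma replicate 1, at -0.53 and -0.55, and Rpsa also with the mean of its probe sets, at -0.42. Rps10 averaged 11.49 in the melanomas and 11.90 in the proliferations (-0.41, limma adjusted p = 0.0443), and lost its call in 8 of 15 alternatives. Rpl13, named after its values were seen to complete the 9, averaged 11.78 in the melanomas and 12.29 in the proliferations (-0.52, limma adjusted p = 0.0153), and lost its call without Cdkn2a/Braf melanoma replicate 1 (-0.45). The member that rose was Rps27l, at 10.63 and 10.19 in the melanomas and at 9.59, 9.37 and 9.94 in the proliferations (0.77, limma adjusted p = 0.0197). It lost its call in 6 of 15 alternatives, among them those without melanoma replicate 1 or without proliferation replicate 1 or 2. Mdm2 averaged 8.66 in the melanomas and 7.88 in the proliferations (0.78, limma adjusted p = 0.0515).

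Without Cdkn2a/Braf melanoma replicate 1, 5 members fell and 0 rose. The median of the members was 0.05 with centring (5 rose, 8 fell), -0.12 with quantile normalization (0 rose, 14 fell), -0.36 with cyclic loess (0 rose, 20 fell) and -1.04 with a common interquartile range (0 rose, 51 fell). Over the other bright genes it was 0.29, 0.09, -0.13 and -0.71 in that order, above the members' median each time.

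Against the proliferations, genes of the mitochondrial ribosome and of ribosome assembly were among those that rose on the deposited scale, where 20.0% of all genes rose in Cdkn2a/Braf/Lkb1 and 12.6% in Cdkn2a/Braf melanomas. Of the 77 mitochondrial ribosomal protein genes 46 rose and 0 fell in Cdkn2a/Braf/Lkb1 melanomas (median 0.73), and 14 rose and 1 fell in Cdkn2a/Braf melanomas (median 0.33). Mrps6 averaged 9.93 in Cdkn2a/Braf/Lkb1 and 9.37 in Cdkn2a/Braf melanomas, against 8.35 in the proliferations. Of the 37 assembly genes 19 rose and 1 fell in Cdkn2a/Braf/Lkb1 melanomas, and 6 rose and 0 fell in Cdkn2a/Braf melanomas. Bysl rose by 1.36 and 0.38, and Ddx21, a helicase of ribosomal RNA processing, by 1.37 and 0.85. Of the 18 regulators 7 rose and 2 fell in Cdkn2a/Braf/Lkb1 melanomas and 3 rose and 0 fell in Cdkn2a/Braf melanomas. Rheb rose by 1.18 and 0.86 and Mtor by 0.59 and 0.52. Tsc2, which with Tsc1 turns Rheb off, rose by 0.44 in Cdkn2a/Braf/Lkb1 melanomas and differed by 0.29 in Cdkn2a/Braf melanomas, which did not pass. Of the 19 TOP genes 3 rose in Cdkn2a/Braf/Lkb1 melanomas and 2 in Cdkn2a/Braf melanomas, Eif3f and Eif3l in both. The median of the TOP list was 0.24 and 0.09, beside 0.30 and 0.22 over the other bright genes.

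These counts shrank once the ranges were made alike. With quantile normalization 6 mitochondrial genes rose and 4 fell in Cdkn2a/Braf/Lkb1 melanomas, with a common interquartile range 10 and 4, and with cyclic loess 11 and 3, and the median stayed positive at 0.27 to 0.29. In Cdkn2a/Braf melanomas the mitochondrial list had 3 to 6 higher and 4 to 8 lower on those 3 scales. The assembly list had 6 to 7 higher and 4 to 5 lower in Cdkn2a/Braf/Lkb1 melanomas and a negative median, from -0.12 to -0.02, in Cdkn2a/Braf melanomas. The TOP list had negative medians on those 3 scales in both. Of the regulators 1 to 2 rose and 3 to 5 fell in Cdkn2a/Braf/Lkb1 melanomas on those 3 scales, and 0 to 1 rose and 2 to 3 fell in Cdkn2a/Braf melanomas.

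**Figure D5:**
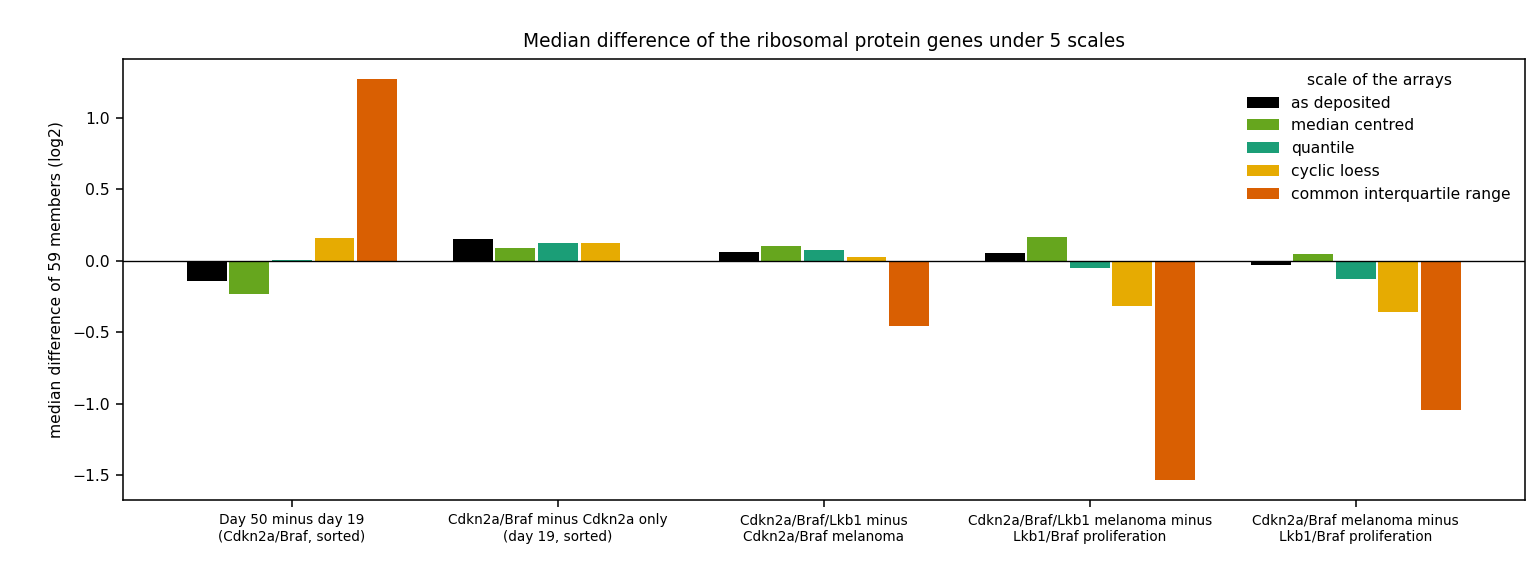
Median difference of the 59 members (y axis, log2) in the 5 comparisons (x axis) on 5 scales of the arrays (colours). On the deposited scale all medians lie between -0.14 and 0.15, whereas with a common interquartile range they run from 1.27 for day 50 against day 19 to -1.53 for Cdkn2a/Braf/Lkb1 melanomas against proliferations.

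Scaling to a common interquartile range stretches every array about its own median, so genes far above that median, as most members are, move most by construction. The comparisons between the day 19 groups and between the melanoma genotypes joined arrays of the most similar range, and there the medians on the first 4 scales stayed within 0.09 to 0.15 and 0.03 to 0.10. By subunit, the median differences on the deposited scale lay between -0.14 and 0.18 for the 34 large and 22 small subunit genes. They were -0.14 and -0.03 for day 50 against day 19, 0.11 and 0.18 for Braf, -0.03 and 0.09 between melanoma genotypes, 0.05 and 0.06 for Cdkn2a/Braf/Lkb1 melanomas against proliferations and 0.04 and -0.05 for Cdkn2a/Braf melanomas against proliferations. For the 3 stalk genes they were -0.22, 0.36, 0.56, -0.50 and -0.76 in the same order.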

How the data were processed

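RNA from the 13 samples was extracted with RNeasy, amplified and labelled with NuGEN reagents and hybridized to Affymetrix arrays, per the labels' protocols. The deposited values are intensities made with RMA, per the submitters' processing notes. They are on a linear scale, from 3.35 to 17698, with array medians of 68.3 to 80.5. RMA normally ends in log2 values, and the step back to a linear scale is not described. Log2(intensity + 1) was taken. Of 34760 probe sets, 22961 are in the platform table, 21640 of them with 1 gene, which gave 19937 genes. Per gene the probe set of highest mean was used. The 59 members have 191 such probe sets, 38 members more than 1. Columns without a sample numbered 0. The platform's symbols can be old. Entrez identifiers of 21553 probe sets were found in the gene reference, and this changed 0 symbols.

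A model of 6 group means over 13 arrays was fitted with limma 3.58.1 in R 4.3.3 (7 residual and 3.08 prior degrees of freedom), with two-sided p-values adjusted by Benjamini and Hochberg's method across the 19937 genes and a threshold of 0.05. The fit was tested on simulated data. The number of arrays limits the precision, low intensities hold background, and no replicate pair was identical. Tables were made with pandas 2.3.3 and numpy 2.4.6 and plots with matplotlib 3.10.9, under Python 3.11.15. The members, the context lists, the markers and the tests were chosen with earlier results of these data known. Genes could be named if they were stalk genes, Rpsa or paralogs, had the highest or lowest levels or SDs, led the calls or differences of a comparison (up to 6 each way), or were in the role and context lists. Replicate numbers are shared by groups. Deviations of same-numbered samples correlated at -0.12 to 0.06, so no strong shared deviation was seen. In groups of 2 arrays the deviations of the 2 replicates mirror each other, and the check cannot tell whether the numbers pair samples. Alternatives were median centring, quantile, cyclic loess and common interquartile range scaling, a pseudocount of 16, the mean of probe sets, genes above the median level, an intensity trend with robust moderation, the replicate block, arrays of the same material, and leaving out each array.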

Additional observations from a re-analysis of the deposited data

How the results depend on the processing

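Across 15 comparison-level results (members higher, members lower and their median in 5 comparisons), 158 of 219 alternative values stayed within 1.5 times the count or within 0.106, the SD of the members' median between arrays of a group, and 61 did not. For 31 results on single genes, 367 of 455 values kept their direction and side of the threshold, 81 lost the call, 2 gained it and 5 reversed. The cause was not tested except where the construction of an alternative is named. For day 50 against day 19 (reported 0 higher, 4 lower, median -0.139), 8 fell with centring, 2 rose and 2 fell with quantile normalization (median 0.006), 47 rose and 1 fell with a common interquartile range (1.27, where Rps10, Rps14 and Rpl10 reversed to 0.804, 1.40 and 1.24), 6 rose and 1 fell with cyclic loess (0.160), 7 fell with a pseudocount of 16, 1 rose with the mean of probe sets, and 1 fell with the replicate block and with arrays of the same material, which have fewer residual degrees of freedom. Leaving out 1 array gave 0 to 3 higher, 1 to 11 lower and a median of -0.212 to -0.0425. For Braf at day 19 the median was 0.0005 with a common interquartile range and 0.0929 to 0.184 without 1 array, and 0 members passed throughout. Between melanoma genotypes (reported 2 higher, 0 lower) a common interquartile range gave 1 higher and 2 lower (-0.455), the mean of probe sets 4 and 1, genes above the median level 1 higher, as Rpl39l is not among the genes tested there, and leaving out 1 array 1 to 2 higher. For Cdkn2a/Braf/Lkb1 melanomas against proliferations (reported 4 higher, 7 lower, 0.054) centring gave 9 higher (0.166), quantile 2 higher, a common interquartile range 1 and 49 (-1.53, with Rpl14 at -0.165 and Rps14 at -1.44), cyclic loess 2 and 20 (-0.319), the mean of probe sets 13 lower, and the replicate block 4 lower. Leaving out 1 array gave 3 to 4 higher and 3 to 5 lower. For Cdkn2a/Braf melanomas against proliferations (reported 1 higher, 9 lower, -0.027) centring gave 5 higher, quantile 0 and 14, a common interquartile range 0 and 51 (-1.04), cyclic loess 0 and 20 (-0.361), a pseudocount of 16 and the robust trend each 3 higher, the mean of probe sets 2 higher (-0.162), and arrays of the same material 2 higher. Leaving out 1 array gave 0 to 2 higher and 5 to 10 lower. In the pairing check, same-numbered deviations correlated at -0.117 between the melanoma genotypes, and with the numbers crossed (chosen after seeing the data) 2 members rose and 0 fell, as reported. The replicate block changed no other count of members by over 1.5 times. Over all genes, day 50 against day 19 had 2211 higher and 2884 lower, and between 349 and 2561 higher and 1153 and 3352 lower over the alternatives. The Braf comparison had 47 and 11, and 1 to 49 and 0 to 25. The melanoma genotypes had 364 and 146, and 90 to 580 and 45 to 358. Melanomas against proliferations had 3991 and 4099 (2203 to 5192 and 1177 to 4278) with Lkb1 and 2507 and 1770 (1297 to 3711 and 674 to 1974) without. The all-gene median (0.170 for day 50, -0.040 for Cdkn2a/Braf/Lkb1 and -0.021 for Cdkn2a/Braf melanomas against proliferations) moved most with genes above the median level, to -0.262, 0.364 and 0.247. With a common interquartile range it was -0.0505, 0.158 and 0.144, with quantile normalization and cyclic loess 0.0601 and 0.026 for day 50, and with centring 0.0729 for Cdkn2a/Braf/Lkb1 melanomas. Rpl10l, Rpl39l and Rpl3l had the lowest mean levels, 4.90, 5.36 and 5.45, where background makes up more of the signal and differences may be understated. How far background changed their differences was not tested.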

Other observations

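The 17 ribosomal protein genes that are named only by probe sets shared with other genes were read through 80 such probe sets. Their levels, by the brightest probe set of each gene, ran from 11.14 to 13.11 with a median of 12.12. Their median difference was -0.12 for day 50 against day 19, 0.18 for Cdkn2a/Braf against Cdkn2a only cells, 0.05 between the melanoma genotypes, 0.07 for Cdkn2a/Braf/Lkb1 melanomas against proliferations and -0.02 for Cdkn2a/Braf melanomas against proliferations. For the 59 members these medians were -0.14, 0.15, 0.06, 0.05 and -0.03 in the same order. Of the 17, 13 were higher in Cdkn2a/Braf than in Cdkn2a only cells at day 19, and 8 were higher at day 50 than at day 19. Several of these probe sets may read the same transcripts as those of the members, so these genes are not an independent set.

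On the brightness of arrays, 34 members on each array were among the 100 brightest genes in Cdkn2a/Braf/Lkb1 melanomas and between 31 and 32 in Cdkn2a/Braf melanomas, against 36 to 37 in the proliferations. In sorted cells they numbered 28 and 32 at day 50, 30 and 31 at day 19 with Cdkn2a/Braf and 25 and 29 with Cdkn2a only. The mean level of the 100 brightest genes lay between 12.26 and 12.37 on all 13 arrays, so the top of the scale was alike while the middle of it was not.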
